A study of Mus musculus with 18 samples.

Results

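Genes of cholesterol and fatty acid synthesis were followed through B cell differentiation in mice with and without the histone methyltransferase G9a in B cells. The set was defined by gene symbol and not by a cut on measured values, but earlier results of these data were known when it was chosen. All 37 named genes were present among the 12960 genes of the expression table. The set holds 19 genes of sterol synthesis, 8 of SREBP2 control and cholesterol uptake or transport, and 10 of fatty acid synthesis, elongation and desaturation. RNA was sequenced from spleen in 18 libraries of 1000 cells each, 3 libraries in each of 6 groups. KO mice carried G9afl/fl together with 1 copy of a Cre recombinase allele that acts in B lineage cells, and Ctrl mice carried that Cre allele alone, so both genotypes had the recombinase. Naive B cells of either genotype came from uninfected mice and were enriched with CD43 beads. Activated B cells (B220+GL7+) and plasma cells (CD138+ with intermediate or low B220) of either genotype were sorted 72 h after 50 µg of lipopolysaccharide (LPS) in 100 µl had been injected into the tail vein. Naive cells thus differed from the sorted ones in cell type, in LPS and in how they were isolated, and these cannot be told apart. The ages of the mice, and whether replicate libraries stand for different mice, are not in the labels, so p-values here speak only of the spread among these libraries.

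Cells make cholesterol from acetyl-CoA through mevalonate and squalene, and make fatty acids from the same precursor with fatty acid synthase. The transcription factor SREBP2, encoded by Srebf2, is carried by Scap to be cut and activated when sterols in the endoplasmic reticulum are low, and Insig proteins hold Scap back when sterols are high. Dividing B cells and antibody-secreting cells both build membrane. The levels below are RPKM (reads adjusted for gene length and for the depth of the library, so that genes can be compared) after scaling between libraries, and changes are differences in log2(scaled RPKM + 1) tested with limma. A change was called when its p-value, adjusted by the Benjamini-Hochberg method over the 12782 genes tested, was under 0.05, and all 37 genes were tested.

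The targeted gene, Ehmt2, showed no called change in RNA over the whole gene. It measured 13.7 to 23.1 scaled RPKM in naive KO and 13.7 to 27.4 in naive Ctrl libraries, 21.4 to 23.0 in activated KO and 19.3 to 25.5 in activated Ctrl, and 12.2 to 14.6 in plasma cell KO and 16.1 to 17.6 in plasma cell Ctrl, where the limma adjusted p was 0.102. Reads over the remaining exons count toward this level, so it does not check the deletion. Estimated depth was 1.61 to 3.78 M reads (M for mega) in naive KO, 2.69 to 10.86 in activated KO, 6.73 to 7.74 in activated Ctrl, 5.1 to 6.61 in plasma cell KO and 5.88 to 6.91 in plasma cell Ctrl libraries, and it could be resolved in only 1 of 3 naive Ctrl libraries. Naive libraries were noisier, with a median gene SD on the log2 scale of 0.388 in KO and 0.368 in Ctrl, against 0.125 and 0.134 in activated KO and Ctrl and 0.126 and 0.133 in plasma cell KO and Ctrl. The test therefore gave each cell type its own variance factor. The same fit without these factors is called the unweighted fit below, and its counts stand beside each result that it ends. Summed plasma cell markers (6 genes) measured 7765 to 8720 scaled RPKM in plasma cell KO and 8426 to 9444 in plasma cell Ctrl libraries, and 256 to 839 in the other libraries. Summed B cell markers (5 genes) ran from 4178 to 4821 in naive, 2263 to 3516 in activated and 968 to 1667 in plasma cell libraries. In such bulk samples, fewer cells of a type and less RNA per cell cannot be told apart.

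**Figure D1:**
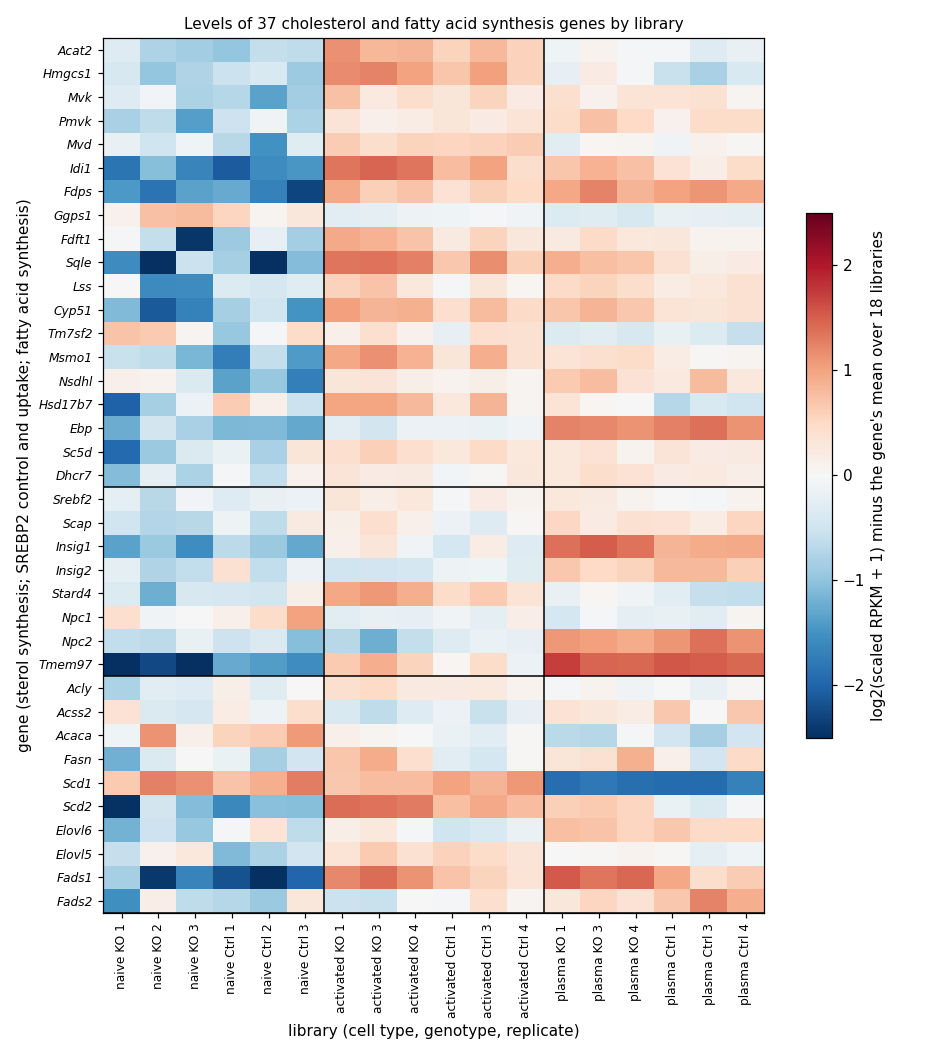
Heat map of the 37 genes (rows, in the order sterol synthesis, SREBP2 control and uptake, fatty acid synthesis) in the 18 libraries (columns), as log2(scaled RPKM + 1) minus the gene's mean over all libraries; the colour scale saturates at its ends. Most sterol synthesis genes are low in naive libraries and high in activated ones, Scd1 is low in all 6 plasma cell libraries, and Tmem97 climbs from naive to plasma cells.

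The sequence just before the transcription start was available for 29 of the 37 genes, in RefSeq promoter windows of 300 bases (250 before the start and 50 after it) on GRCm38.p6. Windows were searched on both strands for CCAAT, the box bound by NF-Y, which is known to act with SREBP at sterol genes, for TCACNCCAC, a form of the sterol regulatory element, and for CACGTG, an E-box that SREBP can also bind. CCAAT was present in 24 of the 29 genes (82.8%), in 15 of 16 sterol synthesis genes (93.8%), 5 of 6 genes of control and uptake and 4 of 7 fatty acid synthesis genes, against 43.4% of the 10219 tested genes with a window and 41.1% of all 27025 genes with one. TCACNCCAC was present in 1 of the 29, Hmgcs1, against 1.3% of the tested genes and 1.44% of all genes with a window. CACGTG was present in 6 of the 29 (20.7%), against 11.6% of the tested genes and 8.09% of all genes with a window. A match is a description of the letters and not a site of binding. The 250 bases before the start are shown for 5 genes, written 5′ to 3′ in the direction of the gene. Matches to CCAAT (or ATTGG, the same box on the other strand) and TCACNCCAC are in capitals. These 5 were picked among genes called between KO and Ctrl below that held more than 1 such match. Hsd17b7 and Npc2 met this rule too and are not shown. Npc2 was called lower in activated KO, whereas the 5 shown were called higher in KO. The 5 do not stand for all called genes. Of the 15 genes called between KO and Ctrl, 11 had a window, and 9 of these held CCAAT. Scap and Elovl6 held 0 such matches, and Cyp51 and Insig1 held 1 each. Hmgcs1 (chr13:119690101-119690350 on the forward strand) and Idi1 (chr13:8885356-8885605 on the forward strand) act before squalene is made. Msmo1 (chr8:64733579-64733828 on the reverse strand) acts after squalene. Tmem97 (chr11:78550736-78550985 on the reverse strand) is a regulator of cholesterol transport, and Fasn (chr11:120824548-120824797 on the reverse strand) makes fatty acids. In Fasn the run CCAATTGG holds the box on both strands, and in Hmgcs1 the 9 letters TCACCCCAC begin 137 bases before the start.
Hmgcs1: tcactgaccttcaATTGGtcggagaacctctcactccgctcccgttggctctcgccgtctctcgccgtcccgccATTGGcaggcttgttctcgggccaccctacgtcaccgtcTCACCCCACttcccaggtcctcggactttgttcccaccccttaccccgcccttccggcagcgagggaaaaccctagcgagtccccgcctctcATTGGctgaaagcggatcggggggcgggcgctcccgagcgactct
Idi1: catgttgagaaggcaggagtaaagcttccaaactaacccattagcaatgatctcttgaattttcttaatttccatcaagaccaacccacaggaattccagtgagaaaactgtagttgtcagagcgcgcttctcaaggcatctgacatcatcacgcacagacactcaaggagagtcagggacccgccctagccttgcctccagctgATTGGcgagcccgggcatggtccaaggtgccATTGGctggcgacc
Msmo1: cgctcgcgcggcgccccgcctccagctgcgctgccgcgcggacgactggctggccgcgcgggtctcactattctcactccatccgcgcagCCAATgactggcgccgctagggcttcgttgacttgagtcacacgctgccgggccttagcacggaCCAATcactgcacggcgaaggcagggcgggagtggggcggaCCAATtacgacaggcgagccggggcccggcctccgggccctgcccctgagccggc
Tmem97: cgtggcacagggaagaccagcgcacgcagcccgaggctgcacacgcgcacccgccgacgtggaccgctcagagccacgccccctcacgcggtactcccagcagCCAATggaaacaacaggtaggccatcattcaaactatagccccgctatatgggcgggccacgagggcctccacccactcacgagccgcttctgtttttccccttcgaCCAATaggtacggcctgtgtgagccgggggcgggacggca
Fasn: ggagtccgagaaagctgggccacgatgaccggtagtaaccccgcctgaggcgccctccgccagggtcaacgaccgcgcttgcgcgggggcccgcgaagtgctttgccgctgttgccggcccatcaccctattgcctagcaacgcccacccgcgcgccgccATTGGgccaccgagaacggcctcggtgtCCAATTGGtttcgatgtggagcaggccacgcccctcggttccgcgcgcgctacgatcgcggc

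Most genes of sterol synthesis, 13 of 19 in Ctrl, rose in activated over naive B cells. Over all roles in Ctrl, 19 of the 37 genes were called higher in activated than in naive cells and 0 lower, where 16.2% of all genes tested were called higher and 33.1% lower. The 37 genes had a median log2 change of 0.72, against -0.29 for all genes. By role, 13 of 19 sterol synthesis genes rose (median 1.32), 3 of 8 genes of control and uptake (median 0.37) and 3 of 10 fatty acid synthesis genes (median 0.25). In KO, 26 rose and 1, Ggps1, fell, where 18.3% of all genes were called higher and 26.7% lower, and 17 genes rose in both genotypes. Under quantile normalization the median of all genes moved to -0.06 in Ctrl and the split of all calls from 2076 higher and 4234 lower to 2193 and 1877, while 20 of the 37 genes were called higher and 0 lower.

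Idi1, which makes dimethylallyl diphosphate from isopentenyl diphosphate, measured 27.6, 32.8 and 21.8 scaled RPKM in activated Ctrl and 2.99, 4.64 and 5.15 in naive Ctrl libraries. Sqle, the squalene epoxidase that commits squalene to sterols, measured 47.1, 66.5 and 44.1 in activated Ctrl and 16.0, 3.54 and 13.3 in naive Ctrl. Fdps, which makes farnesyl diphosphate, measured 84.6, 100.1 and 93.4 in activated Ctrl and 26.8, 19.5 and 12.5 in naive Ctrl. In each of these genes every activated library lay above every naive one. The log2 changes in limma were 2.44 for Idi1 (SE 0.27, adjusted p = 7.0e-07), 2.35 for Sqle (SE 0.38, adjusted p = 7.3e-05) and 2.24 for Fdps (SE 0.23, adjusted p = 4.3e-07). The other 10 sterol synthesis genes that rose had log2 changes from 0.75 for Pmvk to 1.77 for Msmo1. Ggps1, which turns toward geranylgeranyl diphosphate instead of sterols, had the lowest change of the 19, -0.38 in Ctrl (adjusted p = 0.091) and -0.76 in KO (adjusted p = 0.003). It measured 14.6, 15.2 and 14.8 scaled RPKM in activated Ctrl and 23.4, 16.7 and 19.5 in naive Ctrl, with no overlap.

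Among the genes of control and uptake, Tmem97 measured 43.4, 58.3 and 37.9 scaled RPKM in activated Ctrl and 16.8, 15.3 and 13.6 in naive Ctrl. Insig1 had 29.2, 45.8 and 31.8 in activated Ctrl and 25.0, 20.5 and 15.9 in naive Ctrl. Stard4, a cytosolic sterol carrier, had 10.3, 11.9 and 9.48 in activated Ctrl and 5.20, 4.98 and 8.19 in naive Ctrl. None of these pairs overlapped, and the log2 changes were 1.53 for Tmem97 (SE 0.26, adjusted p = 1.2e-04), 0.77 for Insig1 (SE 0.27, adjusted p = 0.024) and 0.72 for Stard4 (SE 0.28, adjusted p = 0.037). The calls of Insig1 and Stard4 were lost without single libraries, at adjusted p up to 0.156 and 0.166, among them naive Ctrl replicate 2 for both. Srebf2 itself measured 63.6, 75.0 and 69.4 in activated Ctrl and 51.4, 56.9 and 58.1 in naive Ctrl, a log2 change of 0.32 (SE 0.16, adjusted p = 0.115).

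In fatty acid synthesis the activation step was carried by desaturases and an elongase. Fads1, the delta-5 desaturase of polyunsaturated fatty acids, measured 11.6, 10.4 and 8.81 scaled RPKM in activated Ctrl and 0.702, 0.292 and 0.937 in naive Ctrl. Scd2, a stearoyl-CoA desaturase that makes monounsaturated fatty acids, measured 70.1, 80.1 and 71.1 in activated Ctrl and 12.8, 19.3 and 19.2 in naive Ctrl. Elovl5, an elongase of polyunsaturated fatty acids, measured 51.6, 47.5 and 43.3 in activated Ctrl and 15.4, 19.5 and 24.4 in naive Ctrl. All 3 were separated without overlap, with log2 changes of 2.79 for Fads1 (SE 0.33, adjusted p = 2.0e-06), 2.07 for Scd2 (SE 0.27, adjusted p = 5.9e-06) and 1.24 for Elovl5 (SE 0.21, adjusted p = 1.5e-04). The core enzymes were not called in Ctrl: the log2 change was 0.23 for Acly, -0.89 for Acaca and 0.27 for Fasn, with adjusted p of 0.306, 0.057 and 0.631.

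**Figure D2:**
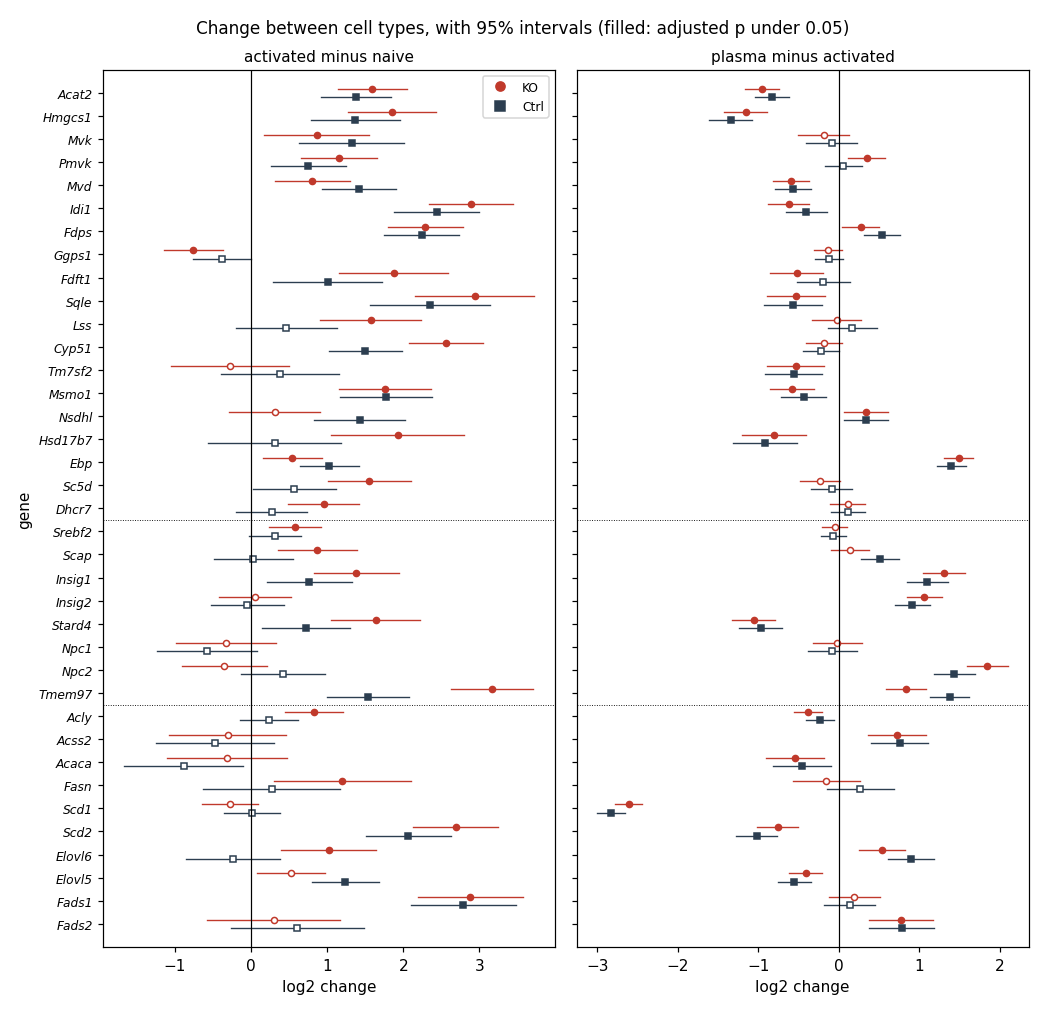
Log2 change of each gene (rows) between cell types on the log2(scaled RPKM + 1) scale, activated minus naive on the left and plasma cells minus activated on the right, in KO (circles) and Ctrl (squares), with 95% intervals; filled symbols have adjusted p under 0.05 in limma. Most sterol synthesis genes lie right of 0 at the first step, and at the second Scd1 lies furthest to the left while Ebp, Insig1, Tmem97 and Npc2 lie furthest to the right.

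At the step into plasma cells, 11 of the 37 genes (29.7%) were called higher and 14 (37.8%) lower in Ctrl, where 24.9% of all genes were called higher and 27.5% lower, so that a split in both directions was common to all genes. In KO, 11 were higher and 15 lower, where 24.7% and 28.6% of all genes were. Sterol synthesis genes were more often lower (8 of 19, with 3 higher, in Ctrl), genes of control and uptake more often higher (5 of 8, with 1 lower), and fatty acid synthesis genes were mixed (3 higher and 5 lower of 10). These counts were not tested against each other. Summed over the 19 sterol synthesis genes, the level was 536, 548 and 520 scaled RPKM in plasma cell Ctrl and 477, 571 and 487 in activated Ctrl, with overlap. Of the 19 genes that rose on activation in Ctrl, 9 fell at the step to plasma cells, 5 rose again and 5 were not called. In KO these numbers were 11, 6 and 9 of 26. Activated and naive libraries of Ctrl did not overlap in 22 of the 37 genes that were higher and 3 that were lower, where 20.4% and 41.4% of all genes did so, and those of KO in 27 and 2 (22.3% and 35.9% of all genes). Plasma cell and activated libraries of Ctrl did not overlap in 11 and 14 (26.9% and 29.9% of all genes), and those of KO in 10 and 18 (27.5% and 31.3% of all genes). With RPKM as deposited, without scaling between libraries, the median of all genes moved to -0.14 in Ctrl and the split of all calls from 3188 higher and 3510 lower to 2357 and 4712, while 10 of the 37 genes were called higher and 19 lower. The unweighted fit called 9 higher and 6 lower in Ctrl, and 6 higher and 7 lower in KO. Of all 12782 genes tested it called 2055 higher and 2143 lower in Ctrl, and 2013 higher and 2220 lower in KO.

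The sterol synthesis gene that rose most was Ebp, the sterol isomerase, at 108, 117 and 98.7 scaled RPKM in plasma cell Ctrl and 40.0, 39.5 and 41.6 in activated Ctrl. Its log2 change was 1.40 (SE 0.09, adjusted p = 8.9e-12). Fdps rose by 0.53 (SE 0.11, adjusted p = 2.5e-04), with 133, 142 and 128 in plasma cell Ctrl and 84.6, 100.1 and 93.4 in activated Ctrl. Nsdhl, a sterol dehydrogenase, was called at 0.34 (SE 0.13, adjusted p = 0.037), with 14.9, 21.97 and 15.1 in plasma cell Ctrl and 13.2, 13.8 and 12.9 in activated Ctrl. The Nsdhl call was lost without plasma cell Ctrl replicate 3 or activated Ctrl replicate 1 or 4, at adjusted p up to 0.295. In the other direction, Hmgcs1, which makes HMG-CoA, measured 12.7, 10.5 and 14.5 in plasma cell Ctrl and 31.5, 40.0 and 28.8 in activated Ctrl, a log2 change of -1.34 (SE 0.13, adjusted p = 1.1e-08). Hsd17b7, a sterol ketone reductase, measured 1.47, 2.12 and 1.88 in plasma cell Ctrl and 3.84, 6.25 and 3.23 in activated Ctrl. Acat2, which condenses acetyl-CoA, measured 21.5, 17.7 and 19.4 in plasma cell Ctrl and 33.1, 39.4 and 33.5 in activated Ctrl. Both were lower without overlap, by log2 changes of -0.92 (SE 0.19, adjusted p = 3.7e-04) for Hsd17b7 and -0.83 (SE 0.10, adjusted p = 4.4e-07) for Acat2.

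The uptake and control genes that rose were led by Npc2, the lysosomal protein that hands cholesterol to Npc1. Npc2 measured 72.8, 88.6 and 74.0 scaled RPKM in plasma cell Ctrl and 26.5, 29.8 and 28.7 in activated Ctrl. Tmem97 measured 125, 121 and 115 in plasma cell Ctrl and 43.4, 58.3 and 37.9 in activated Ctrl. Insig1 measured 72.8, 76.8 and 78.3 in plasma cell Ctrl and 29.2, 45.8 and 31.8 in activated Ctrl. All 3 were separated without overlap, with log2 changes of 1.43 (SE 0.12, adjusted p = 1.9e-09) for Npc2, 1.37 (SE 0.12, adjusted p = 2.4e-09) for Tmem97 and 1.10 (SE 0.12, adjusted p = 1.5e-07) for Insig1. Insig2 rose by 0.91 and Scap by 0.51, whereas Srebf2 had a log2 change of -0.07 (SE 0.07, adjusted p = 0.487). Stard4 fell, with 5.82, 4.53 and 4.39 in plasma cell Ctrl and 10.3, 11.9 and 9.48 in activated Ctrl (log2 change -0.97, SE 0.13, adjusted p = 1.4e-06).

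The largest change of any of the 37 genes at this step was that of Scd1, the other stearoyl-CoA desaturase. It measured 17.8, 17.9 and 21.2 scaled RPKM in plasma cell Ctrl and 143, 129 and 150.3 in activated Ctrl, a log2 change of -2.83 (SE 0.08, adjusted p = 5.1e-17). Scd2 had 36.6, 31.8 and 39.5 in plasma cell Ctrl and 70.1, 80.1 and 71.1 in activated Ctrl, a log2 change of -1.02 (SE 0.12, adjusted p = 3.5e-07). The pair are close paralogs that lie near each other on chromosome 19 (Scd2 from 44293674 to 44306864 on the forward strand, Scd1 from 44394455 to 44407879 on the reverse strand, GRCm38), and reads that both share could have been counted to either. Elovl5 had 35.0, 29.2 and 31.8 in plasma cell Ctrl and 51.6, 47.5 and 43.3 in activated Ctrl, a log2 change of -0.55 (SE 0.10, adjusted p = 5.8e-05). Elovl6, which elongates saturated fatty acids, stood at 2.62, 2.16 and 2.20 in plasma cell Ctrl and 0.609, 0.735 and 1.02 in activated Ctrl, a log2 change of 0.90 (SE 0.14, adjusted p = 9.2e-06). Fads2, the delta-6 desaturase, stood at 4.83, 7.65 and 5.86 in plasma cell Ctrl and 2.61, 3.94 and 2.85 in activated Ctrl. Acss2, which makes acetyl-CoA from acetate, stood at 3.45, 1.82 and 3.48 in plasma cell Ctrl and 1.54, 0.895 and 1.42 in activated Ctrl. Both rose without overlap, by 0.78 (SE 0.19, adjusted p = 0.002) for Fads2 and 0.76 (SE 0.17, adjusted p = 7.2e-04) for Acss2, at levels where the added 1 RPKM understates the fold.

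Set against naive cells, plasma cells had 20 of the 37 genes called higher and 3 lower in Ctrl, where 22.1% of all genes were called higher and 40.2% lower, and 26 higher and 2 lower in KO, where 22.3% and 30.6% were. Libraries did not overlap in 24 that were higher and 4 that were lower in Ctrl (24.6% and 44.8% of all genes), and in 29 and 3 in KO (25.9% and 36.2% of all genes). The 3 genes that fell in Ctrl were Scd1 (log2 change -2.82, SE 0.18, adjusted p = 5.1e-11), Acaca, which makes malonyl-CoA (-1.34, SE 0.38, adjusted p = 0.005), and Ggps1 (-0.51, SE 0.18, adjusted p = 0.022).

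**Figure D3:**
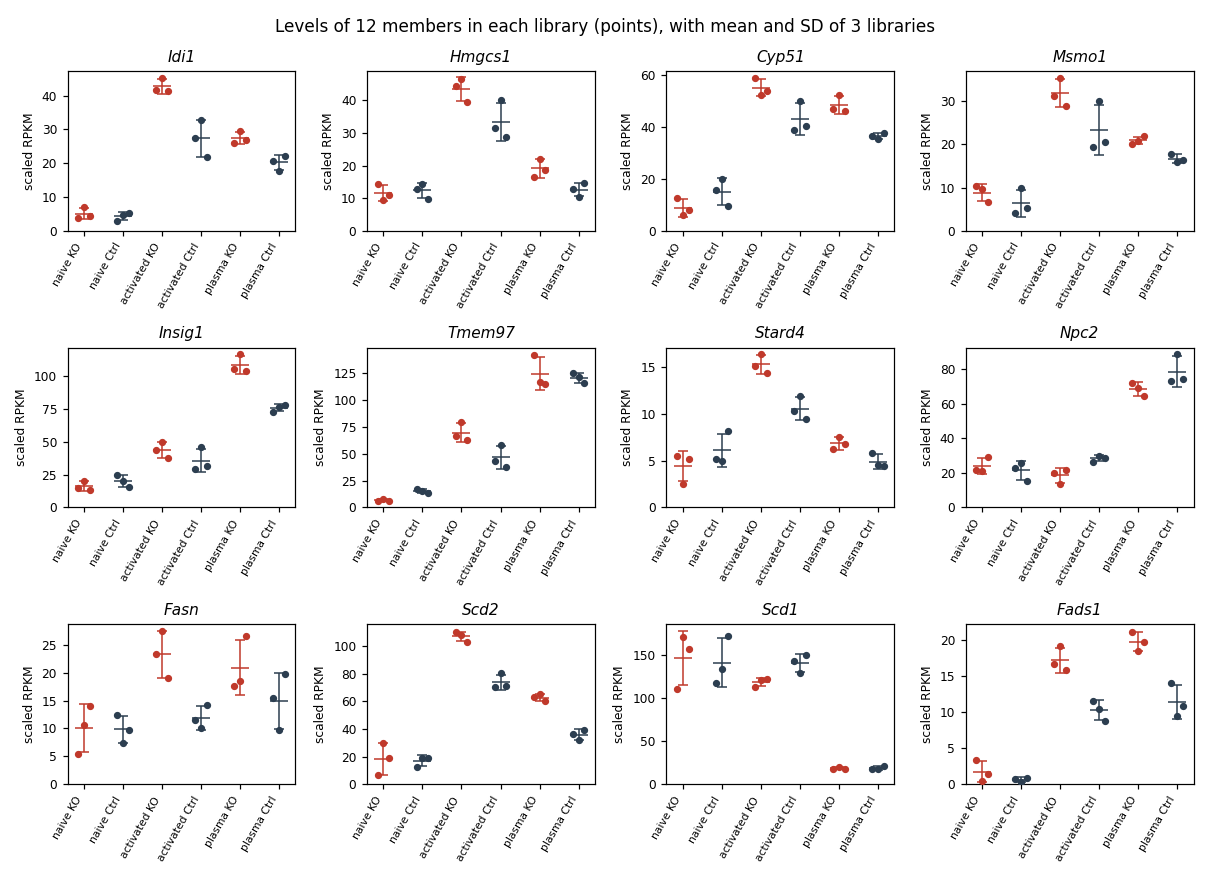
Level of 12 of the genes in each library (points, in scaled RPKM) with mean and SD of 3 libraries, for KO (red) left of Ctrl (dark) in the naive, activated and plasma cell groups. In activated cells every KO point of Idi1, Cyp51, Stard4, Tmem97, Fasn, Scd2 and Fads1 lies above every Ctrl point, and every KO point of Npc2 lies below.

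In activated B cells 11 of the 37 genes were called higher in KO than in Ctrl and 1 lower, where 6.69% of all genes were called higher and 8.1% lower, and the median log2 change was 0.21 against -0.02 for all genes. The change was positive in 27 of the 37 genes. The 11 were spread over the roles: 4 of 19 sterol synthesis genes, 3 of 8 genes of control and uptake and 4 of 10 fatty acid synthesis genes. KO and Ctrl libraries did not overlap in 13 genes that were higher and 4 that were lower, where 15.3% and 16% of all genes did so. Summed over the 19 sterol synthesis genes, the level was 651, 608 and 597 scaled RPKM in activated KO and 477, 571 and 487 in activated Ctrl. The unweighted fit, in which naive and sorted libraries share 1 variance, called 0 of the 37 in either direction, with adjusted p from 0.0636 for Tmem97 to 0.893 for Fdft1 among the 12. Of all genes that fit called 55 higher and 174 lower, against 855 and 1035 in the main fit. The fit of the 6 activated libraries alone called 11 of the 37 higher and 1 lower. Msmo1 and Elovl6 lost their calls there, so the 11 were not all the same genes. Of the 9998 genes tested there, 859 were called higher and 924 lower.

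Within sterol synthesis, Idi1 (Entrez 319554, chromosome 13 from 8885501 to 8892451) measured 41.6, 45.3 and 41.5 scaled RPKM in activated KO and 27.6, 32.8 and 21.8 in activated Ctrl. Cyp51, the lanosterol demethylase, measured 58.9, 52.4 and 54.0 in activated KO and 38.6, 49.9 and 40.2 in activated Ctrl. Fdft1, the squalene synthase, measured 21.3, 20.1 and 18.01 in activated KO and 12.4, 15.8 and 13.0 in activated Ctrl. In all 3 the lowest KO library lay above the highest Ctrl library, and the log2 changes were 0.64 for Idi1 (SE 0.12, adjusted p = 0.0012), 0.36 for Cyp51 (SE 0.11, adjusted p = 0.026) and 0.50 for Fdft1 (SE 0.16, adjusted p = 0.0378). Msmo1, the C-4 sterol methyl oxidase, measured 31.3, 35.5 and 29.0 in activated KO and 19.4, 30.0 and 20.5 in activated Ctrl, where the highest Ctrl library lay above the lowest KO library (log2 change 0.46, SE 0.13, adjusted p = 0.0232). Sqle (0.51, adjusted p = 0.055), Acat2 (0.29, adjusted p = 0.056) and Hmgcs1 (0.38, adjusted p = 0.051) missed the threshold. The other 12 sterol synthesis genes ran from -0.16 for Ebp to 0.54 for Hsd17b7. Fdft1 overlaps Ctsb and Cyp51 overlaps Akap9, each on the opposite strand, and the library kit does not mark strand, so reads from the shared parts could not be told apart.

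Among the genes of control and uptake, Tmem97 (Entrez 69071, chromosome 11 from 78541817 to 78550777) had 66.5, 79.2 and 62.4 scaled RPKM in activated KO and 43.4, 58.3 and 37.9 in activated Ctrl. Stard4 had 15.1, 16.4 and 14.4 in activated KO and 10.3, 11.9 and 9.48 in activated Ctrl. Scap had 29.3, 35.9 and 29.2 in activated KO and 23.7, 21.0 and 27.03 in activated Ctrl. All 3 were higher in every KO library, by 0.58 for Tmem97 (SE 0.12, adjusted p = 0.00214), 0.50 for Stard4 (SE 0.13, adjusted p = 0.0111) and 0.38 for Scap (SE 0.11, adjusted p = 0.0269). Npc2 went the other way, with 20.2, 13.8 and 21.9 in activated KO and 26.5, 29.8 and 28.7 in activated Ctrl. Its highest KO library lay below its lowest Ctrl library, and it was the only one of the 37 called lower (log2 change -0.60, SE 0.12, adjusted p = 0.002). Srebf2 measured 80.5, 72.4 and 78.2 in activated KO and 63.6, 75.0 and 69.4 in activated Ctrl, with overlap (log2 change 0.15, SE 0.08, adjusted p = 0.206). Insig1 had a log2 change of 0.30 (adjusted p = 0.119) and Insig2 of -0.30 (adjusted p = 0.058).

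The gene with the largest change was Fasn (Entrez 14104, chromosome 11 from 120805846 to 120824547), with 23.3, 27.5 and 19.0 scaled RPKM in activated KO and 11.5, 10.0 and 14.2 in activated Ctrl. Its mean was 1.95 times as high in KO (log2 change 0.91, SE 0.20, adjusted p = 0.00387). Fads1 measured 16.7, 19.1 and 15.8 in activated KO and 11.6, 10.4 and 8.81 in activated Ctrl. Scd2 measured 109.9, 108 and 103 in activated KO and 70.1, 80.1 and 71.1 in activated Ctrl. Elovl6 measured 1.53, 1.73 and 1.22 in activated KO and 0.609, 0.735 and 1.02 in activated Ctrl. All 4 were higher in every KO library, by 0.70 for Fads1 (SE 0.15, adjusted p = 0.0036), 0.53 for Scd2 (SE 0.12, adjusted p = 0.00558) and 0.48 for Elovl6 (SE 0.14, adjusted p = 0.0216). The desaturases differed among themselves: Scd1 had 113, 121 and 122 in activated KO and 143, 129 and 150.3 in activated Ctrl, lower in every KO library but not called (log2 change -0.24, SE 0.08, adjusted p = 0.054), and Fads2 had a log2 change of -0.53 (adjusted p = 0.073).

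Single libraries moved these counts. Leaving out 1 activated library at a time gave 6 genes called higher without Ctrl replicate 1, 7 without Ctrl replicate 4, 7 without KO replicate 1, 9 without KO replicate 3, 10 without KO replicate 4 and 16 without Ctrl replicate 3. The calls moved among all genes too, with 855 higher in the main fit and 547, 460, 531, 611, 681 and 873 in these fits, in the same order. Idi1, Tmem97, Npc2, Fasn, Scd2 and Fads1 kept their calls in all 6 of these fits. Fdft1 lost its call in 5 of them, Cyp51 and Msmo1 in 4 each, Scap and Elovl6 in 3 each, and Stard4 without Ctrl replicate 4 (adjusted p = 0.057). Activated Ctrl replicate 3 stood apart for sterol synthesis, as the highest of the 3 Ctrl libraries in 15 of 19 genes (78.9%), where it was highest in 26.5% of all genes. Its median excess over the other Ctrl libraries was 0.29 on the log2 scale for these genes and -0.05 for all genes.

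Other markers differed between the activated groups. The summed level of 5 cycling genes (Mki67, Ccna2, Ccnb1, Top2a and Rrm2) was 862 to 1032 scaled RPKM in activated KO and 660 to 810 in activated Ctrl, with 0 of 5 called. Summed B cell markers were 2263 to 2433 in activated KO and 3091 to 3516 in activated Ctrl, with 4 of 5 called lower. Summed plasma cell markers were 334 to 432 in activated KO and 747 to 839 in activated Ctrl, with 4 of 6 called lower. The haemoglobin genes summed to 14.5 to 22.8 in activated KO and 3.99 to 4.94 in activated Ctrl, with 1 of 2 called higher, and the platelet genes to 0.136 to 0.322 in activated KO and 1.23 to 1.36 in activated Ctrl, with 1 of 3 called lower. The part of these differences in the results on lipid synthesis was not tested.

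**Figure D4:**
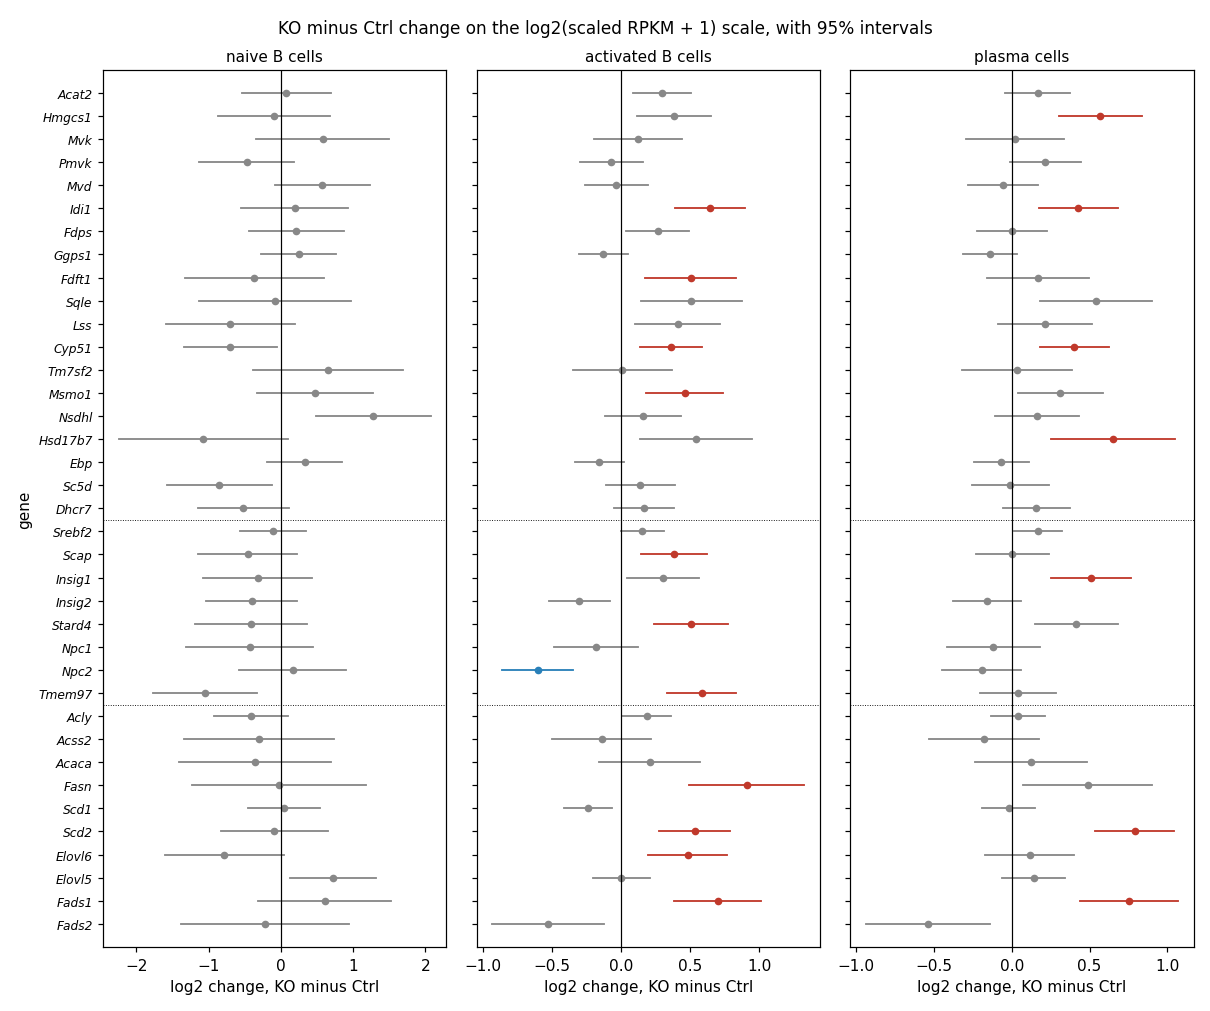
Log2 change of each of the 37 genes (rows), KO minus Ctrl, in the naive, activated and plasma cell groups, with 95% intervals; red marks genes called higher, blue the gene called lower, and grey genes with adjusted p of 0.05 or more in limma. Intervals are widest in naive cells, where 0 genes were called, and 11 genes are red in activated cells and 7 in plasma cells; the horizontal scale of the naive panel is wider.

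In plasma cells 7 of the 37 genes were called higher in KO than in Ctrl and 0 lower, where 3.68% of all genes were called in each direction. By role they were 4 sterol synthesis genes, 1 gene of control and uptake and 2 fatty acid synthesis genes, and the median log2 change of the 37 was 0.14, against -0.00354 for all genes. All 7 were higher in every KO library. In all, 12 genes were higher and 3 lower without overlap, where 11.2% and 13.6% of all genes were. The unweighted fit called 0 of the 37, with adjusted p from 0.335 for Hmgcs1 to 1 for Cyp51 and Hsd17b7 among the 7. Of all genes the unweighted fit called 57 higher and 22 lower, against 470 and 471 in the main fit. The fit of the 6 plasma cell libraries alone called 9 of the 37 higher and 0 lower, where 385 and 452 of the 9902 genes it tested were.

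Hmgcs1 (Entrez 208715, chromosome 13 from 119690379 to 119708260) measured 16.4, 22.1 and 18.7 scaled RPKM in plasma cell KO and 12.7, 10.5 and 14.5 in plasma cell Ctrl. Idi1 measured 26.1, 29.5 and 26.8 in plasma cell KO and 20.7, 17.8 and 22.2 in plasma cell Ctrl. Cyp51 measured 46.7, 52.3 and 46.2 in plasma cell KO and 36.4, 35.2 and 37.4 in plasma cell Ctrl. These 3 rose by 0.57 (SE 0.13, adjusted p = 0.00823), 0.43 (SE 0.12, adjusted p = 0.0365) and 0.40 (SE 0.11, adjusted p = 0.0231) on the log2 scale, in the order given. Hsd17b7 was low, at 4.13, 3.19 and 2.99 in plasma cell KO and 1.47, 2.12 and 1.88 in plasma cell Ctrl (log2 change 0.65, SE 0.19, adjusted p = 0.0422). Insig1, a target as well as a brake of SREBP2, measured 105, 117 and 104 in plasma cell KO and 72.8, 76.8 and 78.3 in plasma cell Ctrl, a log2 change of 0.51 (SE 0.12, adjusted p = 0.0137). Among fatty acid genes, Scd2 measured 63.0, 65.0 and 60.1 in plasma cell KO and 36.6, 31.8 and 39.5 in plasma cell Ctrl, a log2 change of 0.79 (SE 0.12, adjusted p = 2.96e-04). Fads1 measured 21.1, 18.5 and 19.7 in plasma cell KO and 14.01, 9.43 and 10.9 in plasma cell Ctrl, a log2 change of 0.75 (SE 0.15, adjusted p = 0.00325). Scd1, at 18.05, 19.7 and 18.3 in plasma cell KO and 17.8, 17.9 and 21.2 in plasma cell Ctrl, had a log2 change of -0.02 with a 95% interval from -0.19 to 0.15.

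Scd2 and Fads1 kept their calls without each plasma cell library in turn. Hmgcs1 lost its call without KO replicate 3 (adjusted p = 0.0508), Insig1 in 3 of the 6 fits, Cyp51 in 4, and Idi1 and Hsd17b7 in 5 each. The count of genes called higher was 3 without KO replicate 1, 2 without KO replicate 3, 4 without Ctrl replicate 1, 5 without KO replicate 4 or Ctrl replicate 3, and 7 without Ctrl replicate 4. Of all genes, 470 were called higher in the main fit. Without KO replicates 1, 3 and 4 in turn 251, 351 and 346 were, and without Ctrl replicates 1, 3 and 4 in turn 327, 371 and 378. Plasma cell KO replicate 3 was the highest of the 3 KO libraries in 13 of 19 sterol synthesis genes (68.4%), where it was highest in 28.1% of all genes. Its median excess over the other KO libraries was 0.13 on the log2 scale for these genes and -0.04 for all genes. Cd3e, the only one of 5 T cell markers in the table, measured 7.13 to 10.1 scaled RPKM in plasma cell KO and 0 to 0.12 in plasma cell Ctrl, and the 2 haemoglobin genes in the table summed to 45.0 in 1 plasma cell KO library and to at most 1.17 in the other 5 plasma cell libraries. Summed B cell markers were 968 to 1112 in plasma cell KO and 1324 to 1667 in plasma cell Ctrl, without overlap, with 1 of 5 called lower. The part of all these differences in the results on lipid synthesis was not tested.

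In naive B cells limma called 0 of the 37 genes and 0 of all genes between KO and Ctrl. At an unadjusted p under 0.05 there were 5 of the 37 (2 higher and 3 lower) and 884 of all genes, and the fit of the 6 naive libraries alone also called 0 of the 37. The unweighted fit called Nsdhl (adjusted p = 0.00155) and Elovl5 (0.028) higher and Tmem97 lower (8.05e-04). Nsdhl measured 13.5, 13.2 and 9.41 scaled RPKM in naive KO and 4.30, 5.89 and 3.10 in naive Ctrl (log2 change 1.28, 95% interval 0.48 to 2.07). Tmem97 measured 6.03, 8.04 and 6.46 in naive KO and 16.8, 15.3 and 13.6 in naive Ctrl (log2 change -1.05, 95% interval -1.77 to -0.33). They were the only 2 of the 37 without overlap, where 4.32% of all genes were higher and 7.84% lower without overlap. Intervals were wide: for Fasn the log2 change was -0.02 with a 95% interval from -1.23 to 1.19. Red cell and platelet markers were also present in naive libraries, the 2 haemoglobin genes summing to 265 to 491 in naive KO and 282 to 370 in naive Ctrl and 3 platelet genes to 40.6 to 72.1 in naive KO and 46.4 to 104 in naive Ctrl.

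**Figure D5:**
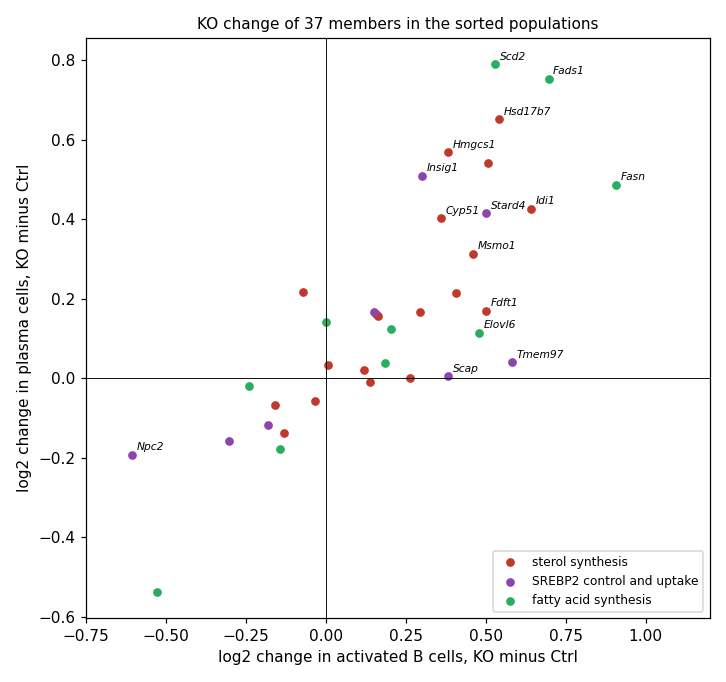
Log2 change KO minus Ctrl in plasma cells (vertical axis) against that in activated B cells (horizontal axis) for the 37 genes, coloured by role. Of the 37 points 26 lie in the upper right and 9 in the lower left; Scd2 and Fads1 are high on both axes, while Tmem97 and Scap are high in activated cells and near 0 in plasma cells.

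The KO changes in activated and plasma cells come from separate libraries and can be set side by side. Whether activated and plasma cell libraries of a genotype came from the same mice is not in the labels, so these changes may not be independent. Idi1, Cyp51, Scd2 and Fads1 were called higher in both, which is 36.4% of the 11 genes called higher in activated cells and 57.1% of the 7 in plasma cells. The sign of the change was the same in 35 of the 37 genes (26 higher and 9 lower in KO), where it was the same in 63.3% of all genes. Across the 37 genes the changes had a Pearson r of 0.79 and a Spearman rho of 0.81, against a Pearson r of 0.47 across all genes; genes are not independent replicates, and the points share the 12 libraries. The difference of the KO effect between plasma and activated cells was tested directly and called in 0 of the 37 genes, against 231 higher and 73 lower of all genes (1.81% and 0.571%). At an unadjusted p under 0.05 there were 3 of the 37 and 1711 of all 12782 genes tested. Among the 37, Tmem97 had the smallest adjusted p, with a difference of -0.54 (95% interval -0.89 to -0.19, adjusted p = 0.111). For Fasn the difference was -0.42, with a 95% interval from -1.01 to 0.17. Differences of the KO effect between activated and naive cells were also called in 0 of the 37 (12 at an unadjusted p under 0.05), and between plasma and naive cells in 0 (10 at an unadjusted p under 0.05), where 0.0156% of all genes were called higher and 0.0313% lower in the first and 0.102% higher and 0.0156% lower in the second. Of all genes, 1240 had an unadjusted p under 0.05 in the first and 1168 in the second. The unweighted fit called Tmem97 in both of these contrasts, and Nsdhl in the first.

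Genes next to these pathways were taken from 4 lists by function, to be read against the 6.69% of all genes called higher and 8.1% called lower in activated KO. Whether the calls in these lists held in the unweighted fit is not given here. That fit called 55 higher and 174 lower of all genes in activated KO, against 855 and 1035 in the main fit. Of 13 genes on the mevalonate branches to prenylation, dolichol and ubiquinone, 3 were higher and 1 lower in activated KO. Fntb, the beta subunit of farnesyltransferase, measured 10.8, 14.4 and 12.7 scaled RPKM in activated KO and 5.08, 4.36 and 3.98 in activated Ctrl, and every KO library was above every Ctrl library (log2 change 1.31, SE 0.12, adjusted p = 4.1e-07). Pdss1, a subunit of the synthase of the ubiquinone side chain, was higher by 0.70 (adjusted p = 0.014), Rabggtb by 0.40 (adjusted p = 0.020), and Rabggta was lower by -0.30 on the log2 scale (adjusted p = 0.017); the last 2 are subunits of 1 enzyme, the prenyltransferase of Rab proteins. Of 12 genes of SREBP processing and sterol handling, 1 was called higher and 1 lower in activated KO; the lower one was Soat1, which esterifies cholesterol (-0.43, adjusted p = 0.008). Of 13 tested genes of fatty acid elongation, activation and precursor supply, 1 was higher (Hacd2, 0.42, adjusted p = 0.007), and of 14 genes of fatty acid oxidation 1 was higher (Etfb, 0.22, adjusted p = 0.022) and 1 lower. The shares called in these last 3 lists, at most 8.33% in a direction, are near those of all genes. The fatty acid oxidation gene called lower was Cpt1a, the enzyme that passes fatty acids to mitochondria for oxidation, with 5.50, 7.65 and 9.12 in activated KO and 15.7, 7.79 and 14.5 in activated Ctrl, where the groups overlapped (log2 change -0.67, adjusted p = 0.017).

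In plasma cell KO the same 4 lists held 1 gene called higher and 1 called lower in all, both among the 12 genes of SREBP processing and sterol handling, where 3.68% of all genes were called in each direction. So few calls are no result about the lists. Whether they held in the unweighted fit is not given here. That fit called 57 higher and 22 lower of all genes in plasma cell KO, against 470 and 471 in the main fit. Erlin1, an endoplasmic reticulum protein that takes part in the turnover of sterol regulators, measured 8.64, 7.86 and 8.18 scaled RPKM in plasma cell KO and 5.30, 4.50 and 5.77 in plasma cell Ctrl (log2 change 0.58, adjusted p = 0.003). Rnf139, a ubiquitin ligase of the endoplasmic reticulum, was lower by -0.34 on the log2 scale (adjusted p = 0.035). Between cell types in Ctrl, Dhdds, a subunit of the enzyme that starts dolichol synthesis, rose by 1.76 in activated over naive cells (adjusted p = 1.1e-05) and by 1.87 in plasma over activated cells (adjusted p = 4.8e-12), and its partner Nus1 rose by 1.17 at the second step (adjusted p = 5.7e-10). Of the 12 genes of SREBP processing and sterol handling 2 rose and 0 fell on activation, and 8 rose and 3 fell at the step to plasma cells, among the risers Osbpl2 (1.01, adjusted p = 1.4e-09) and Mbtps1, the first protease that cuts SREBP (0.93, adjusted p = 1.1e-08). Of the 14 fatty acid oxidation genes 4 rose and 0 fell on activation, and 4 rose and 2 fell at the step to plasma cells. Of all genes, 16.2% rose and 33.1% fell on activation and 24.9% rose and 27.5% fell at the step to plasma cells, so the 28.6% of fatty acid oxidation genes that rose at the second step is near the share of all genes.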

How the data were processed

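Spleen B lineage cells of KO and Ctrl mice were sequenced in 18 libraries (6 groups of 3) of 1000 cells, made with SMART-seq v4 and Nextera XT per the labels' protocols. The deposited values are RPKM per gene, made by the authors; STAR and mm10 are named in the submitters' processing notes, with versions, annotation and counting settings not given in the sources used here. RPKM are not counts, so no count test was run. Samples were grouped by the labels.

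RPKM were scaled between libraries by the median of ratios over 8012 genes that exceeded 1 RPKM in every library (factors 0.911 to 1.08). Genes with a mean of at least 1 scaled RPKM in a group were kept (12782 of 12960). The test was limma 3.58.1 (R 4.3.3) on log2(scaled RPKM + 1), which understates changes of low genes, with 6 group means, a variance factor per cell type (relative SD 2.04 in naive, 0.704 in activated and 0.696 in plasma cells), a mean-variance trend and two-sided p-values adjusted by Benjamini-Hochberg over all genes tested. The variance factors were chosen because naive libraries were noisier, with results of an earlier fit without them known. The test was also run on simulated data, for the KO contrast in activated cells only. The simulated noise was given an SD per gene and cell type, much as the fit assumes. That run therefore cannot decide whether the variance factors were the right choice. The members and lists were also chosen with earlier results of these data known. Genes named with every library's value were those called in a KO contrast, the 3 with the largest called change in each direction per role and Ctrl step, and up to 3 per other list, by smallest adjusted p; Srebf2, Scd1, Nsdhl, Ggps1, Cpt1a and others that missed the rule are given beside them and were chosen after their values were seen. Depth was estimated from the steps between low RPKM values. Gene positions are from GENCODE on GRCm38 and promoters from RefSeq on GRCm38.p6. Python 3.11.15 with pandas 2.3.3 and matplotlib 3.10.9 was used. Alternatives were other scaling, pseudocounts, filters, sets of libraries, replicate blocks and leaving out each library. Results that need some items withheld from this text are not reported here.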

Additional observations from a re-analysis of the deposited data

Results flagged for a closer look

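The KO effect on Tmem97 stood in opposite directions in naive and activated B cells. Every naive KO library (6.03, 8.04 and 6.46 scaled RPKM) lay below every naive Ctrl library (16.8, 15.3 and 13.6), and every activated KO library (66.5, 79.2 and 62.4) lay above every activated Ctrl library (43.4, 58.3 and 37.9). The difference of the KO effect, activated minus naive, was 1.63 on the log2 scale (95% interval 0.87 to 2.40, limma adjusted p = 0.094). It missed the threshold there and passed it in the fit of the libraries of both cell types alone (adjusted p = 0.0398) and in the unweighted fit (adjusted p = 0.00154). Both of these fits gave naive and activated libraries a shared variance, although naive libraries were noisier, so they add no independent support. Of all genes, the unweighted fit called 269 higher and 657 lower in naive KO, where the main fit called 0.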

How the results depend on the processing

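Of 44 changes of named genes, 20 kept their call under all 29 settings tried that applied to them, and 0 changed direction under any. The unweighted fit lost 22 calls, a pseudocount of 0.1 lost 7, and quantile normalization and the fit of own libraries lost 2 each. The unweighted fit called 2 genes higher and 1 lower in naive KO, 0 higher and 0 lower in activated KO and 0 higher in plasma cell KO. It called 2 lower on activation in Ctrl, 6 lower in plasma over activated cells in Ctrl, 6 higher and 7 lower there in KO, and 4 lower in plasma over naive cells in KO. Of all genes it called 5036 lower on activation in Ctrl and 4744 lower in plasma over naive cells in KO. For the difference of the KO effect it called 1 higher and 1 lower (activated minus naive) and 1 higher (plasma minus naive). The count of genes lower in activated KO was 2 under quantile normalization, 2 with a pseudocount of 5, 3 with a filter at 5 RPKM and 2 without the naive libraries. In plasma cell KO a pseudocount of 0.1 gave 4 higher and a pseudocount of 5 gave 1 lower. On activation in Ctrl 1 gene was lower with a pseudocount of 5 and 1 in the fit of own libraries, which also gave 1 higher difference of the KO effect (activated minus naive). The cause of these shifts was not tested.

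Leaving out 1 library at a time gave 6 to 16 genes higher and 1 to 2 lower in activated KO, 2 to 7 higher and 0 lower in plasma cell KO, and 0 in naive KO. It gave 16 to 19 higher and 0 to 1 lower on activation in Ctrl, 22 to 27 and 1 in KO, 10 to 11 and 10 to 14 in plasma over activated cells in Ctrl, 8 to 11 and 14 to 15 in KO, 17 to 21 and 2 to 4 in plasma over naive cells in Ctrl, and 20 to 26 and 2 to 3 in KO. For differences of the KO effect it gave 0 to 1 higher (activated minus naive), 0 to 1 lower (plasma minus activated) and 0 otherwise.

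The replicate numbers were not used to pair libraries in the main fit. Of 15 same-numbered pairs, 4 had a correlation of their deviations over 0.1. Only between plasma cell KO and Ctrl (0.068 to 0.312) did all 3 libraries correlate best with their own number. With 3 libraries per group, such correlations cannot exclude pairing. With the replicate block 12 genes were higher and 1 lower in activated KO, 9 higher and 1 lower in plasma cell KO, 0 in naive KO, and 18 higher and 0 lower on activation in Ctrl. Intervals were widest in naive cells, where the spread between libraries was largest; the part of read depth in this was not tested.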
